A study of Caenorhabditis elegans with 23 samples.

Results

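The mRNA of whole adult Caenorhabditis elegans was compared between MY16, a wild isolate, and N2, the laboratory reference strain, with 3 libraries of each. These 6 libraries are all the mRNA libraries labelled MY16 or N2, out of 23 libraries of mRNA and small RNA in the study. The other groups are MY16_Star and N2_Star, and no label says what Star stands for. Worms of every group were adults that the labels call "day one", fed on E. coli OP-50 at 20 °C, and RNA came from whole animals by TRIzol extraction. Replicates are described as biological, with no word on whether they came from separate cultures, so that p-values measure the spread between these libraries. No allele, transgene or treatment is given for either strain. Of 46904 gene IDs, 13983 had enough counts to be tested, and these are the genes described here.

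C. elegans reproduces mostly as a self-fertilizing hermaphrodite, so an isolate is close to a single inbred genotype. Differences between isolates are known to be unevenly spread over the genome, with more of them on the arms of the chromosomes than in their centres. Large gene families that meet the environment, such as F-box and MATH domain adaptors of ubiquitin ligases, C-type lectins and chemoreceptors, are known to lie largely in such regions. Reads of both strains were aligned to the N2 genome. Few counts in MY16 can therefore come with little RNA or with a sequence too different to align, and the counts alone cannot tell these apart. Whole worms were used, so fewer cells of a type and less RNA per cell cannot be told apart either.

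The MY16 libraries held 17216592, 20194076 and 9362590 gene counts, and the N2 libraries 16005895, 11797329 and 23150198. Spearman's rho over genes lay between 0.975 and 0.992 within a strain and between 0.952 and 0.970 across strains. MY16 replicate 1 was the least like its group, with 0.975 and 0.978 against the other MY16 libraries. Levels are CPM, a library's counts for a gene over its total in units of 1e6 after TMM scaling, given as mean ± SD with n = 3, and log2 fold changes are MY16 over N2 with their standard error (SE). A gene is called higher or lower when the edgeR quasi-likelihood test gave a Benjamini-Hochberg adjusted p under 0.05. Markers of oocytes, body wall muscle, neurons and molting hypodermis had 0 called members, and the intestine list had 1, ifb-2. Male markers summed to at most 0.662 CPM in any of the 6 libraries. Of 10 early embryo markers 2 had enough counts to be tested, and 0 were called. Sperm markers also had 0 called members, but their sum in every MY16 library was below that of every N2 library. They are given with the sperm genes.

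Most of the transcriptome did not pass the test between the strains, and the genes that did differ were mostly of low or moderate level. Of 13983 genes tested, 240 were higher in MY16 (1.72%) and 323 were lower (2.31%), together 4.03%. All 563 had MY16 libraries that did not overlap with those of N2, a separation that 23.9% of all tested genes show. The median log2 fold change was 2.32 among the higher genes and -4.13 among the lower ones, against -0.02 over all genes. Among genes with more than 3 counts in each of the 6 libraries, where the change is one of degree, 151 were higher and 128 lower of 12574, with medians of 1.56 and -1.72. The called share was 6.55% below 1 CPM and 6.53% from 1 to 10 CPM, but 2.33% from 10 to 100 CPM and 0.453% at 100 CPM or more. A further 1300 genes differed over 2-fold without being called.

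**Figure D1:**
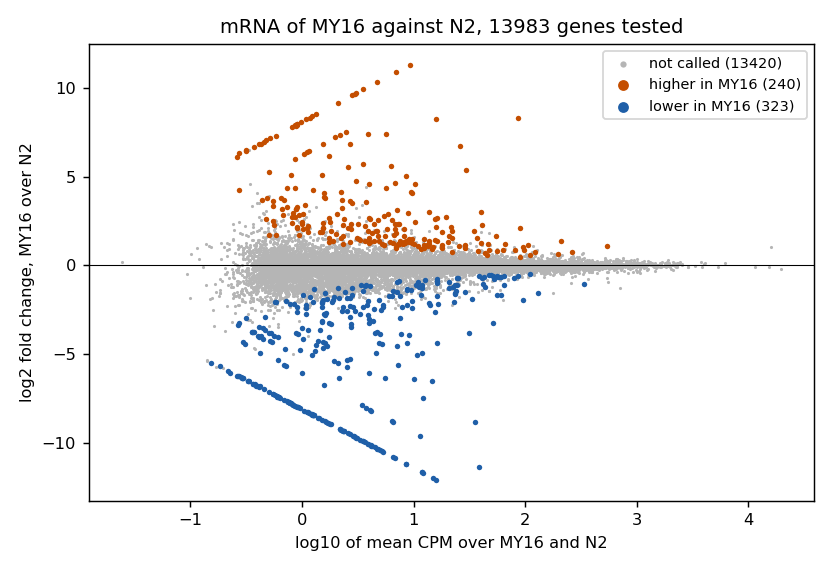
Each point is a tested gene, with the log10 of its mean CPM over MY16 and N2 on the x axis and its log2 fold change (MY16 over N2) on the y axis. The 240 higher genes (orange) and 323 lower genes (blue) thin out toward the right, and the straight diagonal edges are genes at 0 counts in all 3 libraries of a strain, whose plotted fold depends on the prior count.

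At 100 CPM or more, 10 of 2209 genes were called, and changes there were mild. The largest rise in level was that of cpr-4, a cathepsin B-like protease gene (WBGene00000784, chromosome V, 6614674 to 6615851 in ce11). It stood at 318, 367 and 344 CPM in N2 replicates 1, 2 and 3 and at 791, 744 and 678 CPM in MY16, a log2 fold change of 1.11 ± 0.180 (adjusted p 0.00263). The lowest MY16 library was above every N2 library, as in every gene called higher. clec-150, a C-type lectin gene on chromosome III, stood at 96.5, 120 and 134 CPM in N2 and at 327, 293 and 277 CPM in MY16 (log2 fold change 1.35 ± 0.181, adjusted p 0.000592). asp-14, an aspartyl protease gene, rose from 66.0 ± 5.34 to 148 ± 6.55 CPM (adjusted p 0.000889). The other higher genes at this level were the cyclophilin gene cyn-3 (195 ± 11.6 to 328 ± 52.1 CPM), the small GTPase gene rab-18 (91.0 ± 6.52 to 152 ± 31.7), the intestinal intermediate filament gene ifb-2 (155 ± 10.9 to 240 ± 34.8) and egg-4. The calls of cyn-3, rab-18 and ifb-2 were lost in 5, 2 and 4 of 11 alternative settings.

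The 3 lower genes at this level were sax-2, ND1 and smg-6. sax-2, a Furry-like gene of neurite growth (WBGene00004728, chromosome III, 5109701 to 5130676), stood at 201, 185 and 191 CPM in N2 and at 53.0, 72.5 and 70.8 CPM in MY16 (log2 fold change -1.56 ± 0.229, adjusted p 0.00124). ND1, a complex I subunit coded in mitochondrial DNA, stood at 344, 580 and 450 CPM in N2 and at 208, 213 and 243 CPM in MY16 (-1.05 ± 0.189, adjusted p 0.00551). The N2 libraries spread widely for this gene, yet all lay above MY16. smg-6, an endonuclease gene of nonsense-mediated mRNA decay, fell from 129 ± 6.61 to 91.6 ± 9.42 CPM (adjusted p 0.0374).

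A large part of the lower genes was nearly without counts in MY16. Of the 323, 164 had 3 counts or fewer in every MY16 library, and among the 240 higher genes 59 were in that state in N2. Over all tested genes, called or not, the numbers were 228 in MY16 and 88 in N2, with 0 counts in all 3 libraries for 117 and 33. A count of 0 allows up to 3 counts, which was 0.127 to 0.311 CPM in these libraries and covers counting error only. In N2, 40 of the 228 exceeded 5 CPM, with Y94H6A.10 the highest at 77.5 ± 51.8 CPM. A gene nearly empty in a strain is tested only because of its level elsewhere, so these numbers are a description. Genes of MY16 that the N2 genome lacks are not counted at all, so the numbers of the strains are not a like comparison. A fold against a strain with no counts is a lower bound that sets each of its libraries at 3 counts.

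The MY16-depleted genes were clustered along the chromosomes. Of 189 with a location, 79 lay on chromosome II and 55 on chromosome V. Chromosome IV held 28, III held 12, X held 8 and I held 7. Runs of 3 or more neighbouring tested genes, all with 3 counts or fewer in every MY16 library, numbered 9 and held 56 genes. Among the 66 located genes of the 88 depleted in N2, no run reached 3. Only genes of the N2 genome were counted, so genes found in MY16 alone could not appear. The runs of the strains are therefore not a like comparison. The longest run in MY16 was 12 genes from math-21 to bath-24 on chromosome II (1994038 to 2045605), of which 11 were called. In it bath-5, a gene with both BTB and MATH domains, had 29.2, 33.2 and 28.1 CPM in the N2 libraries and no count in MY16, a fall of at least 143-fold. btb-4, with 7.38 ± 0.137 CPM in N2, was likewise without a count in MY16. A run of 8 genes, from math-24 to F52C6.2 (1900234 to 1927347), lies to its left, and all 8 were called.

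On chromosome V, 10 neighbouring genes from srw-86 to C25F9.14 (19400077 to 19437217) and 7 from M04C3.2 to Y43F8B.23 (19445873 to 19467648) had 0 counts in every MY16 library. Their levels in N2 were low, at most 4.41 and 2.45 CPM. Between these runs lies M04C3.1 (19437899 to 19445605), which was not empty in MY16. It stood at 13.9, 27.8 and 44.6 CPM in N2 and at 0.341, 0.102 and 0.621 CPM in MY16 (log2 fold change -6.50 ± 0.631, adjusted p 4.77e-05). On chromosome IV a run of 5 genes (4123525 to 4166230) includes scrm-5 and scrm-8, which code for predicted phospholipid scramblases.

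Called genes as a whole followed the same map. The called share was highest on chromosomes V (6.09%), II (5.86%) and IV (3.71%) and lower on X (1.70%), III (1.58%) and I (1.32%). When each chromosome was cut into 3 equal parts, the left part of II held 13 higher and 79 lower of 669 tested genes (13.8%), and the right part of V held 40 higher and 74 lower of 701 (16.3%). Over all chromosomes the outer parts had 4.86% called and the middle parts 1.60%. Among genes with more than 3 counts in all 6 libraries the shares were 2.60% and 1.21%. These shares are descriptions, since neighbouring genes are not independent.

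In windows of 500 kb, 67 of 203 with a tested gene had no called gene, and 27 windows with 5 or more held 260 of the 472 called genes that have a location. The most called genes were on chromosome II from 2000001 to 2500000, with 28 of 63 tested genes called, all lower. Its left neighbour (1500001 to 2000000) had 24 of 55 called, 5 of them higher. On chromosome V, 21 of 51 genes between 19000001 and 19500000 were called, all lower, whereas 8 of the 9 called between 17000001 and 17500000 were higher. Direction therefore differed from window to window as well as density.

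**Figure D2:**
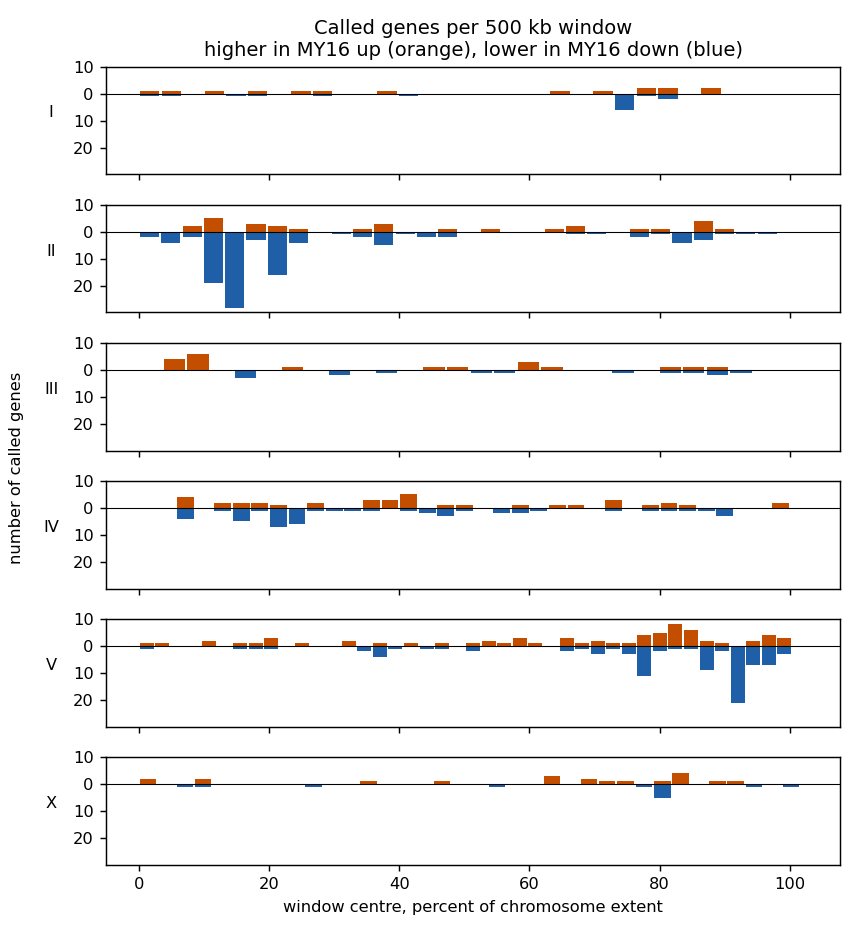
Number of called genes in each 500 kb window, plotted against the window's centre as a percent of the chromosome's extent, for the 6 nuclear chromosomes. Bars above 0 (orange) are genes higher in MY16 and bars below 0 (blue) genes lower, with blue peaks of 28 in the left part of II and 21 in the right part of V.

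Within the regions of many lower genes, a few genes went the other way. In the window from 1500001 to 2000000 the F-box gene fbxb-97 rose from 1.39 ± 0.540 to 9.46 ± 0.312 CPM (log2 fold change 2.79 ± 0.344), and fbxa-164 had 0 counts in N2 and 1.80 ± 0.120 CPM in MY16 (at least 9.64-fold higher). bath-46, also there, rose from 0.472 ± 0.193 to 3.04 ± 0.475 CPM. Other genes in these windows fell by small amounts, such as F54A3.2, from 30.1 ± 1.47 to 18.5 ± 1.69 CPM, a call lost in 6 of 11 alternative settings.

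Among changes of degree, the largest in MY16 was that of WBGene00012680, which the annotation used here gives no symbol or location. It stood at 0.250, 0.739 and 0.593 CPM in N2 and at 147, 177 and 192 CPM in MY16, a log2 fold change of 8.34 ± 0.276 (adjusted p 9.51e-09). No other tested gene had a smaller p. F55B11.5 on chromosome IV followed, with 0.446 ± 0.216 CPM in N2 and 51.2 ± 3.32 CPM in MY16. WBGene00011811, also without a symbol, stood at 9.05, 9.03 and 8.26 CPM in N2 and at 79.5, 62.9 and 74.0 CPM in MY16 (3.04 ± 0.181, adjusted p 1.90e-06). Further higher genes of this kind include C34D4.10 (14.4 ± 1.65 to 54.6 ± 6.95 CPM), Y17G9B.8 (18.8 ± 1.33 to 55.8 ± 3.49) and F58B6.1 (0.527 ± 0.143 to 13.2 ± 2.55). F38A1.9 and clec-165, both higher, overlap on chromosome IV, and since the strand setting of the counting is not stated their reads may not be separate.

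In the lower direction C27C7.1 on chromosome I stood at 56.2, 57.2 and 61.9 CPM in N2 and at 3.64, 5.14 and 3.52 CPM in MY16 (-3.82 ± 0.233, adjusted p 2.14e-06). F19B10.10 fell from 31.1 ± 3.26 to 1.49 ± 0.375 CPM, and the secreted glycine-rich peptide gene grsp-4 from 16.7 ± 5.0 to 0.829 ± 0.179. Some genes with defined cellular roles were lower as well. swsn-1, a core subunit gene of the SWI/SNF chromatin remodelling complex, stood at 40.9, 35.4 and 34.1 CPM in N2 and at 10.6, 8.46 and 7.35 CPM in MY16 (-2.06 ± 0.224, adjusted p 0.000121). None of the other swsn genes looked at (swsn-3, swsn-4, swsn-6, swsn-7, swsn-9) was called, with log2 fold changes from -0.29 to -0.01. osm-3, a kinesin motor gene of sensory cilia, fell from 4.49 ± 0.388 to 0.937 ± 0.0881 CPM (-2.26 ± 0.255, adjusted p 0.000154), whereas the ciliary transport gene osm-1 went from 12.3 ± 0.896 to 11.1 ± 2.18 CPM and was not called. These genes were picked after their values were seen.

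Substrate adaptors of ubiquitin ligases contributed most to the lists. These proteins bind a target and bring it to a cullin ligase, through BTB domains for one class of ligase and F-boxes for another. Of 61 MATH and BTB genes tested, 18 were lower and 1, bath-46, higher. In this list 21 had 3 counts or fewer in every MY16 library, as had 228 of all 13983 tested genes. F-box genes split evenly, 12 higher against 11 lower among 139. The called shares of these lists were 31.1% and 16.5%, against 4.03% of all tested genes. fbxa-100 stood at 7.74, 4.33 and 5.90 CPM in MY16 and at 0 counts in N2 (at least 32.0-fold higher), and fbxa-153 was its mirror image, with 6.74, 5.75 and 5.93 CPM in N2 against no MY16 count. Both lie on chromosome V (16060526 to 16062093 and 15605673 to 15610384). Members of these families are similar in sequence and may share or lose reads.

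For the ligase cores the called share, 4%, was near the 4.03% of all tested genes. Of 25 cullin and SKP1-related genes only skr-4 was called, at 13.3, 15.8 and 13.4 CPM in N2 and 0.284, 0.204 and 0.414 CPM in MY16 (-5.61 ± 0.627, adjusted p 0.000143). Its paralog skr-3 stood at 29.7 ± 3.90 and 31.5 ± 3.03 CPM. cul-3, the cullin that works with BTB adaptors, stood at 345 ± 22.0 and 307 ± 21.6 CPM and was not called. None of 33 proteasome subunit genes was called, with log2 fold changes from -0.34 to 0.13.

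Genes of defence moved in both directions. C-type lectins are secreted or membrane proteins with carbohydrate-binding folds, many of them known from responses to microbes. Of 93 tested 8 were higher and 7 lower (16.1% called, against 4.03% of all tested genes), with a median of 0.22. Besides clec-150, clec-222 went from 8.68, 8.62 and 6.23 CPM in N2 to 38.7, 37.5 and 29.9 CPM in MY16 (2.18 ± 0.336, adjusted p 0.00177), and clec-52 from 7.49, 7.80 and 8.01 to 25.1, 31 and 28.8 CPM (1.86 ± 0.220). clec-97 fell from 13.7 ± 0.913 to 0.597 ± 0.136 CPM, clec-49 from 13.4 ± 2.18 to 1.72 ± 0.532 and clec-73 from 9.96 ± 1.22 to 0.436 ± 0.240. In each of these, as in all 563 called genes, the 3 MY16 libraries lay apart from the 3 N2 libraries.

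Among 12 lysozyme genes, whose products cleave bacterial cell walls, lys-7 was higher, at 9.74, 7.39 and 12.7 CPM in N2 and 28.7, 42.1 and 23.9 CPM in MY16 (1.66 ± 0.261, adjusted p 0.00202). Of 27 infection response and pals genes 2 were higher. The called shares were 8.33% of the lysozyme list and 7.41% of this one, against 4.03% of all tested genes. irg-6 was near 0 in N2, with 0.0141 ± 0.0245 CPM, and stood at 3.97 ± 0.478 CPM in MY16. pals-37 had 0 counts in N2 and 13.8, 4.74 and 9.53 CPM in MY16 (at least 50.1-fold higher). No saposin-like gene (of 18) and no gene of the epidermal antimicrobial peptide list (of 36) was called, with medians of 0.38 and -0.21.

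Enzymes that modify foreign compounds and lipids included some of the larger changes in level. Cytochrome P450 enzymes oxidize both kinds of substrate. Of 57 tested 6 were higher and 3 lower (15.8% called, against 4.03% of all tested genes). The number higher fell to between 2 and 4 as single libraries of either strain were left out. The cyp-35A family, known to respond to xenobiotics in the intestine, split. cyp-35A3 stood at 20.7, 35.4 and 45.1 CPM in N2 and at 135, 161 and 146 CPM in MY16 (2.13 ± 0.455, adjusted p 0.0171), a call lost in 2 of 11 settings. cyp-35A4 and cyp-35A5 rose from 4.24 ± 1.77 to 26.7 ± 3.85 and from 4.41 ± 1.76 to 28.0 ± 13.4 CPM. In contrast cyp-35A2 stood at 67.0, 94.7 and 95.3 CPM in N2 and at 18.7, 29.0 and 32.6 CPM in MY16 (-1.68 ± 0.421, adjusted p 0.0443), a call lost in 6 of 11 alternative settings. These 4 paralogs are alike in sequence, so reads may be shared or set aside among them. cyp-35C1 went from 35.4 ± 17.3 to 64.1 ± 20.3 CPM and was not called.

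An enzyme gene with few counts in MY16 was acdh-2, of the acyl-CoA dehydrogenase family of fatty acid breakdown (WBGene00015894, chromosome II, 5544778 to 5547492). It stood at 53.3, 74.3 and 84.3 CPM in N2 and at 0.341, 0.0509 and 0 CPM in MY16 (-8.83 ± 0.873, adjusted p 5.57e-05). Of 56 fatty acid enzyme genes 3 were lower, the others being the acyl-CoA oxidase gene acox-3 and the acyl-CoA synthetase gene acs-15. In acox-3 the fall, from 99.5, 36.0 and 23.3 CPM to 17.9, 16.4 and 7.77, comes with a wide spread in N2, and its call was lost in 6 of 11 settings. ugt-64, a UDP-glycosyltransferase gene of conjugation, stood at 79.1, 93.2 and 103 CPM in N2 and at 18.1, 28.2 and 39.4 CPM in MY16 (-1.69 ± 0.320, adjusted p 0.00775). gst-22, a glutathione S-transferase gene, was at least 44.9-fold lower, with 9.48 ± 3.25 CPM in N2 against no MY16 count. Over the families, 1 of 58 UDP-glycosyltransferase genes was higher and 2 lower, and 2 of 35 glutathione S-transferase genes were lower. The called shares were 5.17% and 5.71%, and 5.36% for the fatty acid enzymes. These are near the 4.03% of all tested genes.

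**Figure D3:**
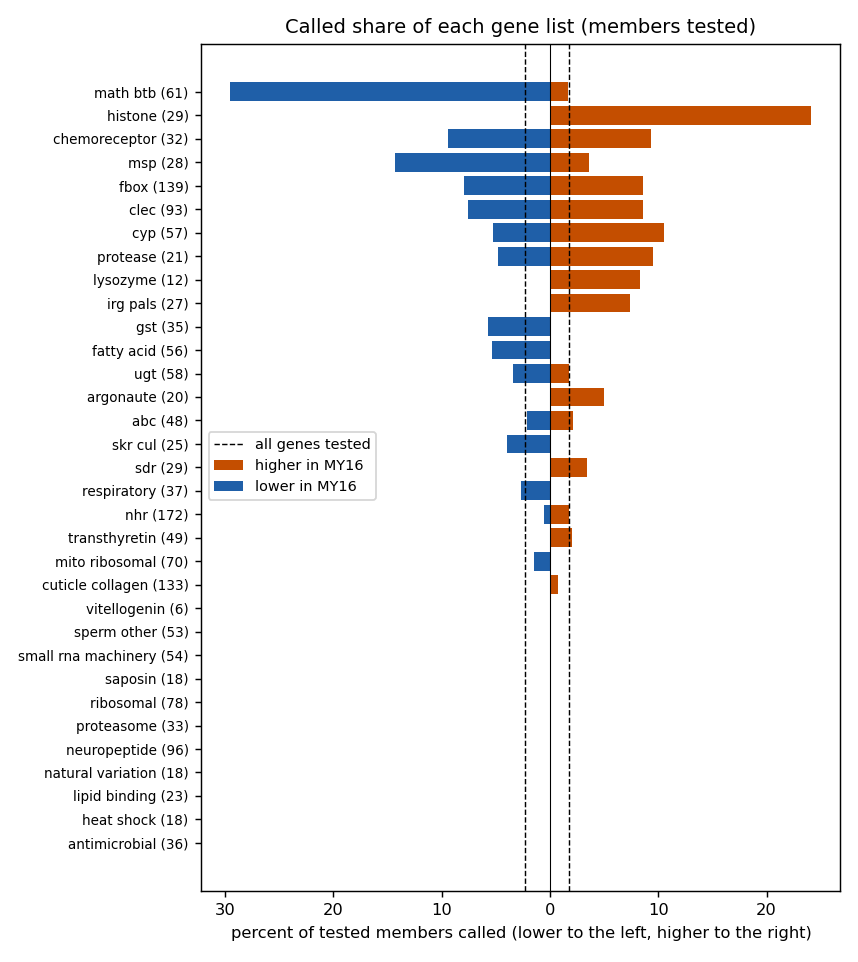
Percent of tested members of each of the 33 gene lists that were called higher (orange, to the right) or lower (blue, to the left) in MY16, with the number tested in brackets. Dashed lines mark the shares over all tested genes, 1.72% higher and 2.31% lower, and the MATH and BTB list reaches farthest to the left.

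Genes of sperm were at lower levels in MY16, without most of them being called. Self-sperm of the hermaphrodite are made before adulthood, and their transcripts persist in the adult gonad. Major sperm proteins (msp) are the cytoskeletal and signalling proteins of nematode sperm. The summed level of 31 msp genes was 302, 308 and 294 CPM in N2 and 68.6, 162 and 192 CPM in MY16. For 59 other sperm genes it was 701, 730 and 691 CPM in N2 and 301, 409 and 509 CPM in MY16. In both lists every MY16 library was below every N2 library, and MY16 replicate 1, the library least like its group, was the lowest.

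Gene by gene, 38 of 53 tested other sperm genes and 21 of 28 msp genes had all MY16 libraries below N2, against 14.9% of all tested genes. edgeR called 0 of the 53 and, of the msp genes, 4 lower and 1 higher (17.9%, against 4.03% of all tested genes). DESeq2 called 4 of the 53 lower. Their median log2 fold change was -1.15, and -0.75 without MY16 replicate 1; for the msp genes it was -0.95 and -0.55, and without that library 1 msp gene was called lower. The 9 sperm markers summed to 146, 166 and 146 CPM in N2 and 33.1, 81.9 and 114 CPM in MY16. gsp-3, a sperm protein phosphatase gene, is typical, with 18.4, 17.6 and 14.1 CPM in N2 and 3.13, 8.97 and 10.6 CPM in MY16 (-1.15 ± 0.580, adjusted p 0.462). Oocyte markers did not move with them: their 9 genes summed to 12457, 10575 and 10522 CPM in N2 and 9898, 13095 and 10940 CPM in MY16. Whether worms of both strains were at the same point of adulthood was not tested.

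Within the msp family individual copies stood out. msp-76 had 24, 25.3 and 23.0 CPM in N2 and 0, 0.204 and 0.207 CPM in MY16 (-7.47 ± 0.665, adjusted p 2.67e-05). msp-74 had 0.104 ± 0.0749 CPM in N2 and 5.05 ± 2.63 CPM in MY16 (5.57 ± 0.859, adjusted p 0.00179). msp copies are nearly identical, so the split of reads among them is uncertain.

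A pair of egg genes showed a like asymmetry between near-identical copies. egg-4 and egg-5 code for pseudophosphatases of the egg cortex that act in the transition from oocyte to embryo and are known to be redundant. egg-5 (WBGene00020035, chromosome I, 4168984 to 4171589) stood at 95.7, 92.0 and 89.6 CPM in N2 and at 10.7, 10.1 and 8.29 CPM in MY16 (-3.25 ± 0.168, adjusted p 6.90e-07). egg-4 stood at 97.1, 85.5 and 81.5 CPM in N2 and at 133, 138 and 122 CPM in MY16 (0.57 ± 0.141, adjusted p 0.0403). The sum of both went from 180 ± 11.2 to 141 ± 9.25 CPM, and the share of egg-5 in it from 51.3 ± 1.45% to 6.87 ± 0.527%. The remaining eggshell and cortex genes egg-1, egg-2, egg-3 and egg-6 were not called, with log2 fold changes from 0.04 to 0.18. This group was looked at after the egg-5 value was seen.

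**Figure D4:**
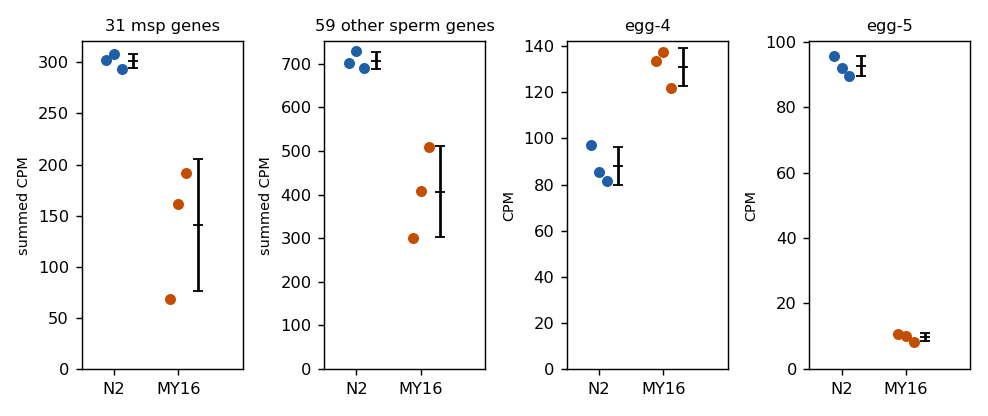
Each point is a library (N2 blue, MY16 orange; the bar beside them is mean ± SD, n = 3), for the summed CPM of msp genes and of other sperm genes and for the CPM of egg-4 and egg-5. MY16 lies below N2 for both sperm sums and for egg-5, and above it for egg-4.

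Histone genes were higher in 7 of 29 tested and lower in 0, with a median log2 fold change of 0.39. This is a called share of 24.1%, against 4.03% of all tested genes. The number of higher histone genes fell to between 3 and 5 when single libraries were left out. his-62, an H2B gene, stood at 4.0, 2.13 and 3.22 CPM in N2 and at 11.7, 9.93 and 9.22 CPM in MY16 (1.71 ± 0.324, adjusted p 0.00767). his-64 rose from 1.6 ± 0.347 to 6.21 ± 1.21 CPM. his-59, his-61 and his-62 are neighbours on chromosome IV, and his-73 lies within the span of W09H1.4, another higher gene, so neither set is independent. Replicative histone mRNAs lack poly(A) tails, and the way RNA was selected for these libraries is not given in the sources used here.

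Among other regulators and receptors, 2.33% of nuclear hormone receptor, 18.8% of chemoreceptor and 5% of Argonaute genes tested were called. The share over all tested genes was 4.03%. Of 172 nuclear hormone receptor genes 3 were higher and 1 lower; nhr-116 stood at 2.50, 1.48 and 2.16 CPM in N2 and at 16.8, 16.7 and 13.9 CPM in MY16 (2.93 ± 0.315, adjusted p 0.000109). Of 1309 predicted chemoreceptor genes 32 were tested, with 3 higher and 3 lower. srh-25 had 0 counts in N2 and 8.08, 6.21 and 7.04 CPM in MY16 (at least 38.1-fold higher), and sri-40 was at least 115-fold lower, with 23.2, 25.4 and 24.6 CPM in N2 against no MY16 count. The Argonaute gene sago-2 was the single called gene among 20, at 1.81 ± 0.420 and 4.88 ± 0.472 CPM (1.42 ± 0.307, adjusted p 0.0184), a call lost in 4 of 11 settings, and 0 of 54 other genes of small RNA pathways were called. In the nematode-specific peptide family c, nspc-14, nspc-18 and nspc-19 were higher, with nspc-19 going from 0.563 ± 0.327 to 6.88 ± 1.05 CPM; this family was picked after its values were seen.

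Housekeeping and structural groups, with the other families given here, had 0% to 4.17% of members called with edgeR. Proteases were the exception, at 14.3%, and the share over all tested genes was 4.03%. No cytosolic ribosomal protein gene (of 78), vitellogenin (of 6), neuropeptide or insulin-like gene (of 96), heat shock gene (of 18) or lipid-binding gene (of 23) was called. Cuticle collagens had 1 higher of 133, mitochondrial ribosomal proteins 1 lower of 70 (mrps-14) and nuclear respiratory chain genes 1 lower of 37 (cox-10). The last 2 calls were each lost in 10 of 11 alternative settings. Short-chain dehydrogenases had 1 higher of 29, transthyretin-like genes 1 higher of 49, ABC transporters 1 higher and 1 lower of 48, and proteases 2 higher and 1 lower of 21. The lower protease gene was asp-12, which stood at 14.5, 31.9 and 34.9 CPM in N2 and 6.83, 4.84 and 6.42 CPM in MY16.

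Genes in which allelic differences between isolates have been mapped were also examined. Of 22, 18 had enough counts, and edgeR called 0 of them, with log2 fold changes from -1.36 to 0.51. The beta-tubulin gene ben-1, known from resistance to benzimidazoles, went from 46.5 ± 4.65 to 33.1 ± 7.38 CPM (-0.49 ± 0.161, adjusted p 0.159). peel-1, the sperm-delivered toxin of a toxin-antidote pair, went from 0.989 ± 0.363 to 0.366 ± 0.257 CPM (adjusted p 0.294), and its antidote zeel-1 from 0.337 ± 0.319 to 0.460 ± 0.0480. ppw-1, an Argonaute gene of germline RNA interference, stood at 52.6 ± 3.65 and 58.2 ± 6.48 CPM. The genes npr-1, glb-5, plg-1 and srx-43 had too few counts to test.

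The MY16_Star and N2_Star groups share no library with those above and carry the same strain names. Since no label explains Star, their contrast may also hold differences tied to it and is not a repeat of the first. There 7.69% of all tested genes were called higher and 14.8% lower. Of the 240 higher genes 236 had the same sign, as had 65.1% of all tested genes, and 197 (82.1%) were called. Of the 323 lower genes 321 had the same sign and 291 (90.1%) were called. In the fit of all 12 libraries the Star contrast called 22.5% of tested genes, so of its 1075 higher and 2070 lower genes 18.3% and 14.1% were called between MY16 and N2. With each pair of groups fitted alone the Star contrast had 235 higher and 557 lower genes, against 329 and 358 for MY16 and N2. Its higher and lower genes in the joint fit were 491 and 790 without MY16_Star replicate 1, 629 and 669 without MY16_Star replicate 2 and 569 and 1336 without N2_Star replicate 3. When each pair of groups was fitted alone, 138 of the higher and 233 of the lower genes were called in the Star libraries. Among called genes with more than 3 counts in all 6 libraries of MY16 and N2, 124 of 151 higher (82.1%) and 98 of 128 lower genes (76.6%) were called with the same sign. The filter and the spread estimate used all 12 libraries, so these counts are a description.

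Of the 563 genes, 75 were not called with the same sign in the Star libraries, the 3 lower genes at 100 CPM or more among them. sax-2 stood at 69.2 CPM in N2_Star and 65.9 CPM in MY16_Star on average, a log2 fold change of -0.07 (adjusted p 0.835). ND1 had -0.25 (adjusted p 0.343) and smg-6 -0.03 (adjusted p 0.86). rnh-1.3, an RNase H gene, stood at 4.56, 5.01 and 5.59 CPM in N2 and 45.8, 28.9 and 27.1 CPM in MY16 (2.75 ± 0.280, adjusted p 7.65e-05), and its log2 fold change in the Star libraries was 0.46. The opposite sign was called for dct-8, eff-1 and T19B10.2. The test of the difference between both contrasts called 0 genes with edgeR (smallest adjusted p 0.168), with 1830 at an unadjusted p under 0.05 and 83 called by DESeq2, so no single gene is shown to differ between them by the main test.

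**Figure D5:**
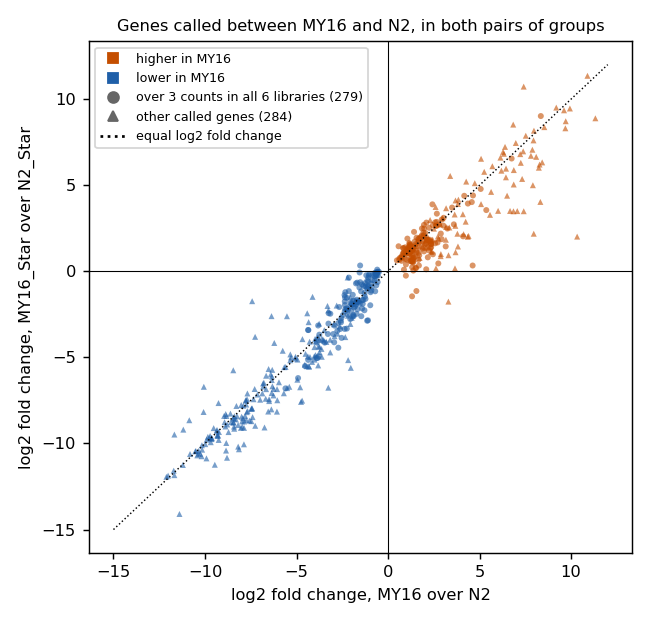
The 563 called genes, with the log2 fold change of MY16 over N2 on the x axis and of MY16_Star over N2_Star on the y axis; circles have more than 3 counts in all 6 libraries of MY16 and N2, triangles do not. Most points follow the dotted line of equality, and 6 genes change sign.

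Small RNA counts per gene, from other libraries of the same strains, were set beside the mRNA calls. These counts were deposited with the mark AS, read here as antisense to the gene. They need not cover all small RNA of a gene. Of 12241 genes tested in small RNA 18.6% were called between MY16 and N2, 8.55% higher and 10% lower. Of 230 lower mRNA genes tested in both assays, 122 had lower and 21 higher small RNA. Of 145 higher genes, 40 had higher and 30 lower small RNA. Genes nearly without MY16 mRNA made up much of the first set: 94 of 131 tested had lower small RNA and 1 had higher. Both assays were counted on the same genes of the N2 genome. Few counts in both can therefore come with little RNA or with a sequence too different to align, and this was not tested. Among genes with more than 3 mRNA counts in all 6 libraries, 28 of 100 lower genes had lower and 18 higher small RNA, and 22 of 101 higher genes had higher and 27 lower small RNA. Over all such genes the small RNA shares were 8.12% higher and 7.53% lower.

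Some genes with clear changes went in opposite directions in the assays. W09H1.4 rose in mRNA from 0.999, 0.903 and 1.23 to 20.1, 16.9 and 17.5 CPM, while its small RNA fell from 759, 710 and 1009 to 20.1, 15.2 and 24 CPM. For rnh-1.3 small RNA fell from 2182, 1767 and 1814 to 186, 252 and 236 CPM. In C27C7.1, lower in mRNA, small RNA rose from 87.2, 78.7 and 70.9 to 289, 218 and 281 CPM. skr-4 had small RNA of 2.24 CPM in N2 and 11.2 CPM in MY16 on average. Its N2 level is near the counting limit: 3 counts were 1.95 CPM in N2 small RNA replicate 3. In MY16 small RNA replicate 1 they were 1.72 CPM. ugt-64 and smg-6, both lower in mRNA, also had higher small RNA, with means of 49.2 and 1528 CPM and of 116 and 337 CPM in N2 and MY16.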

How the data were processed

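Whole-worm mRNA was read in 12 libraries (4 groups of 3), and the 3 MY16 and 3 N2 libraries were compared. The authors deposited whole-number counts of reads per gene, not normalized. The tools named in the submitters' processing notes are cutadapt, FastQC, Bowtie2, HTSeq and DESeq2, with ce11 as the build; versions, annotation release and strand setting are not given in the sources used here. Per the labels' protocols, mRNA and small RNA libraries used the same small RNA kit. Summary lines that name no gene took 7.84% to 17.7% of the mRNA reads and were left out. Reads with low alignment quality were 5.37% to 9.28%, and near-identical gene copies can lose reads that way. In N2 replicate 1, 10.7% of reads were not aligned.

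From these counts, all 12 mRNA libraries were fitted together with edgeR 4.0.16 (R 4.3.3, limma 3.58.1): TMM scaling, filterByExpr, glmQLFit and glmQLFTest, with Benjamini-Hochberg adjustment over all tested genes and a threshold of 0.05. SE was taken as the absolute log2 fold change over sqrt(F). Small RNA was fitted likewise in its own table. Alternatives were DESeq2 1.42.0 size factors, no filter, the DESeq2 test, a fit of the 2 groups alone, a replicate block, and leaving out each library. The edgeR and DESeq2 tests were tried on simulated data. The edgeR test held its false calls near the threshold in mRNA and below it in small RNA, whereas DESeq2 exceeded it in both, so DESeq2 counts are given only as an alternative. Names and ce11 coordinates (1-based) are from RefSeq WBcel235: 44017 of 46904 IDs had a symbol and 43716 a location. A chromosome's extent ends at its last annotated gene.

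The gene lists, comparisons and naming rule were chosen with earlier results of these data known. The rule named, per direction, the 10 called genes without overlap with the largest log2 fold change (mean of at least 5 CPM), the largest difference in CPM, or, among genes over 3 counts in every library, the smallest p; up to 4 called members of each list; the called genes of the 3 windows with most calls; all genes of the natural variation list; and, per direction, 5 genes called oppositely in mRNA and small RNA. Genes outside it are the egg, swsn, osm, nspc, cul, skr and cyp-35 relatives, the sperm and oocyte markers, called genes at 100 CPM or more and members of the lists printed as examples. No p-value accounts for spread that is only technical, if replicates share a culture.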

Additional observations from a re-analysis of the deposited data

How the results depend on the processing

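No called named gene reversed its direction in any setting. The medians of 13 of 33 lists, none over 0.176 in size, changed sign in some setting, and so did that of all genes (-0.04 to 0.05). Between MY16 and N2 the counts stayed within 1.5 times: 247 higher and 315 lower with DESeq2 size factors, 282 and 346 without the filter, 354 and 406 with the DESeq2 test (which made a larger share of false calls than edgeR on simulated data), 329 and 358 with the 2 groups fitted alone, and 161 to 197 and 222 to 279 as single libraries were left out. Between 69.1% and 98.6% of the 563 calls recurred in a setting, and of 166 called named genes 128 kept the call in all 11. The labels do not say what a replicate number marks. Deviations of same-numbered MY16 and N2 libraries correlated at 0.144, -0.144 and 0.194. Those of MY16_Star and N2_Star correlated at 0.255, -0.176 and 0.351. Whether the numbers mark a shared batch was not tested. With a replicate block, 347 genes were higher and 382 lower. Under that block the other sperm list had 13 lower genes and the P450 list 10 higher. For MY16_Star against N2_Star, the 2 groups fitted alone gave 235 higher and 557 lower, the block 265 and 957, and leaving out libraries 491 to 1218 and 669 to 2413. The difference between the contrasts had 21 higher and 62 lower genes with DESeq2, 5 lower without the filter, 1 lower with the replicate block and 0 to 1 as libraries were left out. Small RNA had 509 higher and 610 lower genes with the block, and 683 to 1055 higher as libraries were left out. The cause of these shifts was not tested. Depth limits genes at low levels: a count of 0 cannot be told from 3 counts, which is 0.127 to 0.311 CPM in these libraries. MY16 replicate 3 is the shallowest mRNA library.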
